A study of Mus musculus with 36 samples.

Results

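Mitochondria of mammals translate the few proteins encoded by their own genome on a ribosome of their own, whose protein parts are encoded in the nucleus, made in the cytosol and imported. In heart muscle, which rests on respiration, that ribosome supplies the core subunits of the respiratory chain and of the ATP synthase. Its large subunit joins amino acids and carries the exit tunnel, its small subunit reads the messenger RNA, and both combine proteins shared with bacterial ribosomes and proteins found only in mitochondria. The genes described here are the mouse protein-coding genes named Mrpl or Mrps followed by a number, with pseudogenes dropped and a mean of at least 1 FPKM (fragments per kilobase of transcript and 1e6 reads) over the WT hearts. They numbered 78 among the 18762 genes in the tables, all 78 such symbols of the RefSeq annotation were found, and none lay near the threshold, the lowest being Mrpl17 at a mean of 6.81 FPKM.

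Hearts of C57BL/6 mice 8 weeks old were collected every 4 h under 12 h of light and 12 h of dark on normal chow, and RNA was sequenced. Zeitgeber time (ZT) counts hours from lights on, and hearts were taken at ZT2, ZT6, ZT10, ZT14, ZT18 and ZT22. All animals carried the floxed Rev-erb allele (Reverb fl/fl). The group labelled WT had that allele alone, and the group labelled KO had it together with an MHC transgene. Such transgenes usually express Cre recombinase from a myosin heavy chain promoter, which is active in heart muscle cells, so other cells of the heart would keep the allele. No group had the transgene without the floxed allele, and an effect of the transgene cannot be told apart from one of the deletion. Each of 11 groups held 3 libraries, which made 18 WT libraries at 6 times and 15 KO-labelled libraries at 5 times. KO-labelled hearts at ZT22 were not analysed here because the tables recorded for them held counts of another group. Whether each library came from its own animal is not stated in the labels, and the p-values then cover only the spread among libraries, which may be technical.

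Recovered depth was 13.64 to 15.67 M reads in WT libraries (M, 1e6) and 15.04 to 17.39 M in KO-labelled ones, so depth moved with genotype, and its part in the results was not tested. The targeted receptors are Nr1d1 and Nr1d2. Nr1d1 stood at 9.29 to 87.7 FPKM in WT and at 192 to 317 FPKM in KO-labelled hearts, and Nr1d2 at 10.7 to 42.4 and 22.4 to 35.4 FPKM. Levels over the whole gene cannot show whether floxed exons were lost, and the labels are not supported by a fall of either gene, so directions below are those of the libraries labelled KO. Heart muscle markers were present at a summed level of 44916 to 51670 FPKM in WT and 45673 to 51342 FPKM in KO-labelled hearts, with 3 of 7 called higher and 4 lower. Fibroblast markers had 5 of 7 called higher (sums 402 to 487 against 395 to 566 FPKM). For smooth muscle and pericyte markers 1 of 5 was called higher, which was Acta2 at 45.8 to 236 against 155 to 367 FPKM. Myh11, Tagln, Rgs5 and Pdgfrb were not called, and the sum with Acta2 was 228 to 398 against 313 to 561 FPKM. Of macrophage markers also 1 of 5 was called higher (88.2 to 134 against 96.9 to 140 FPKM). Endothelial markers had 1 of 6 called higher and 1 lower (194 to 262 against 197 to 264 FPKM), and red blood cell markers summed to 2816 to 5974 against 2561 to 5797 FPKM. Atrial markers summed to only 1.23 to 6.06 against 2.26 to 4.68 FPKM, so the libraries held little atrial RNA. Of the 4 atrial markers 1 was tested, Myl4, which was called higher. The part of these cells in the results was not tested, and in RNA of mixed tissue fewer cells of a type and less RNA per cell cannot be told apart. WT levels and sums in this paragraph include ZT22, which the KO-labelled ones lack.

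Upstream sequence was read for the members with a listed start. The RefSeq promoter table (GRCm38.p6, 250 bases before to 50 after a start) matched 69 of the 78 members. Those without a window, which were not searched, were Mrps34, Mrps35, Mrps28, Mrpl4, Mrpl13, Mrpl15, Mrpl19, Mrpl38 and Mrpl54. Nuclear respiratory factor 1 (NRF1) and ETS factors such as GABPA are known activators of nuclear genes for mitochondria. The NRF1 site, which is GCGCA, any base and GCGC, was found on either strand in 13 of the 69 windows (18.8%) and in 11.7% of the 9412 windows of all genes tested. The ETS site CCGGAAG was found in 26 (37.7%, against 20.3%) and the YY1 site AAGATGGCG in 8 (11.6%, against 3.65%). The GC box GGGCGG was found in 34 (49.3%, against 69.0%) and CCAAT in 27 (39.1%, against 43.0%). Of motifs bound by clock factors, the E-box CACGTG was in 5 windows (7.25%, against 11.9%) and the D-box TTATGNAA in 1 (1.45%, against 2.49%). The core AGGTCA of many nuclear receptors was in 11 (15.9%, against 14.9%). The longer element that Rev-erb and ROR receptors bind, searched as TAGGTCA preceded by any 2 bases and an A before them, contains that core and was in 1 window, that of Mrpl53 (1.45%, against 0.542% of all windows). A match is a description of letters and not a site of binding.

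The first pair below shows the NRF1 site, in capitals, upstream of a gene that was higher (Mrpl12, chr11:120484517-120484636, plus strand) and of one that was lower (Mrpl39, chr16:84735245-84735394, minus strand) in KO-labelled hearts. The Mrpl12 match lies on the opposite strand, so its capitals are the reverse complement of the site, and that of Mrpl39 matches on both strands. All stretches are written 5′ to 3′ on the gene's strand and, except for the Mrpl53 element, end at the base before the annotated start.
Mrpl12: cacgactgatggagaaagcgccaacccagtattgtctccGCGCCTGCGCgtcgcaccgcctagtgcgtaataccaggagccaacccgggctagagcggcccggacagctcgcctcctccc
Mrpl39: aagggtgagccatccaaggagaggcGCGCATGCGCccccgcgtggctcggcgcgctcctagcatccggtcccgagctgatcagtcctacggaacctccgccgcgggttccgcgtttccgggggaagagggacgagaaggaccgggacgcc

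The next pair shows the ETS site, in capitals, again for a gene that was higher (Mrpl34, chr8:71464826-71464925, plus strand) and a gene that was lower (Mrpl3, chr9:105053168-105053267, plus strand).
Mrpl34: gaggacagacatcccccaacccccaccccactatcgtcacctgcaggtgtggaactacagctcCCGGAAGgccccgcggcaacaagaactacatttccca
Mrpl3: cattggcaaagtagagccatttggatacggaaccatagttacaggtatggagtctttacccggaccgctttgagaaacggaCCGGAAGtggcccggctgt
Members with either site went both ways in the mean over times: 7 of the 13 with the NRF1 site were higher and 3 lower, and 13 of the 26 with the ETS site were higher and 4 lower. Of all 78 members 39 were higher and 17 lower, and of all genes tested 33.2% and 23.4%, so nothing is read from these counts about the sites.

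The last 3 stretches are the upstream bases of Mrpl16, the member with the smallest adjusted p, with the cAMP response element TGACGTCA in capitals (chr19:11770295-11770414, plus strand); the bases between the divergent starts of Mrpl46 and Mrps11, on the Mrps11 strand, with a GC box in capitals (chr7:78783090-78783130, plus strand); and the stretch around the Rev-erb and ROR element of Mrpl53, which lies on the opposite strand and within the annotated span of its neighbour Ccdc142 (chr6:83108868-83108897, plus strand). The cAMP element was found in 2 of the 69 windows (2.90%, against 3.47%).
Mrpl16: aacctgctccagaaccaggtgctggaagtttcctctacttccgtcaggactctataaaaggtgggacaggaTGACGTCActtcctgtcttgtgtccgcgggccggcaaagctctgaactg
Mrps11: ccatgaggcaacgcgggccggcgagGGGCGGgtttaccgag
Mrpl53: gtggggtggtgcTGACCTAGATCtcgcagg

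In WT hearts the median member stood at 53.8 FPKM, against 8.30 FPKM for all 11790 genes tested, and all 78 members passed the filter of the test. The levels were far from equal. Mrpl42, a large-subunit protein found only in mitochondria, was the highest, at 508, 566 and 634 FPKM (lowest, median and highest of 18 WT libraries). Mrpl30 (234, 253 and 272 FPKM) and Mrps21 (222, 255 and 280 FPKM) followed and overlapped each other. At the low end Mrpl17 (6.21, 6.74 and 7.66 FPKM) and Mrpl19 (5.03, 7.02 and 9.26 FPKM) also overlapped, below Mrps25 (9.49, 11.7 and 13.9 FPKM). Members lay on 17 chromosomes, at most 11 on one, and were short, with a median recovered length of 964 bases against 2750 for all genes tested. Their median GC content was 49.8%, as was that of all genes tested.

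Summed over the 78 members, the level was 5217, 5552 and 5940 FPKM (lowest, median, highest) in the 18 WT libraries. In the 15 KO-labelled libraries it was 5473, 5708 and 6161 FPKM. As a share of all FPKM this was 0.960, 0.992 and 1.049% against 0.966, 1.005 and 1.055%. The sums of both genotypes overlapped. Only the WT libraries include ZT22, where their sums were 5816, 5857 and 5879 FPKM. The sets of times compared in this paragraph are therefore unlike. The large subunit summed to 3677, 3918 and 4160 against 3805, 3963 and 4290 FPKM, and the small subunit to 1399, 1480 and 1606 against 1493, 1588 and 1711 FPKM.

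The mean difference between KO-labelled and WT hearts over the 5 shared times was small and of mixed sign. By limma on log2(FPKM + 1), with Benjamini-Hochberg adjusted p under 0.05 over all genes, 39 members were higher, 17 were lower and 22 were not called. The background was broad: 56.6% of all genes tested were called, 33.2% higher and 23.4% lower. The median member difference was 0.07 and that of all genes 0.02, on the log2 scale. No member differed by 1 or more on the log2 scale, and 8 of those called differed by at least 0.3, a size for which the share of all genes is not given here. The split depended on scaling: median-ratio scaling gave 35 higher and 23 lower, quantile normalization 34 and 23, removal of length and GC trends 34 and 29, and edgeR on rebuilt counts 35 and 23. Shares of all genes called higher and lower under these alternatives are not given here, so the shifts are not read as particular to the members. In the fit as deposited and under these 4 alternatives alike, 31 members were higher and 17 lower, against 48.0% of all genes with 1 call throughout, and no call reversed.

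**Figure D1:**
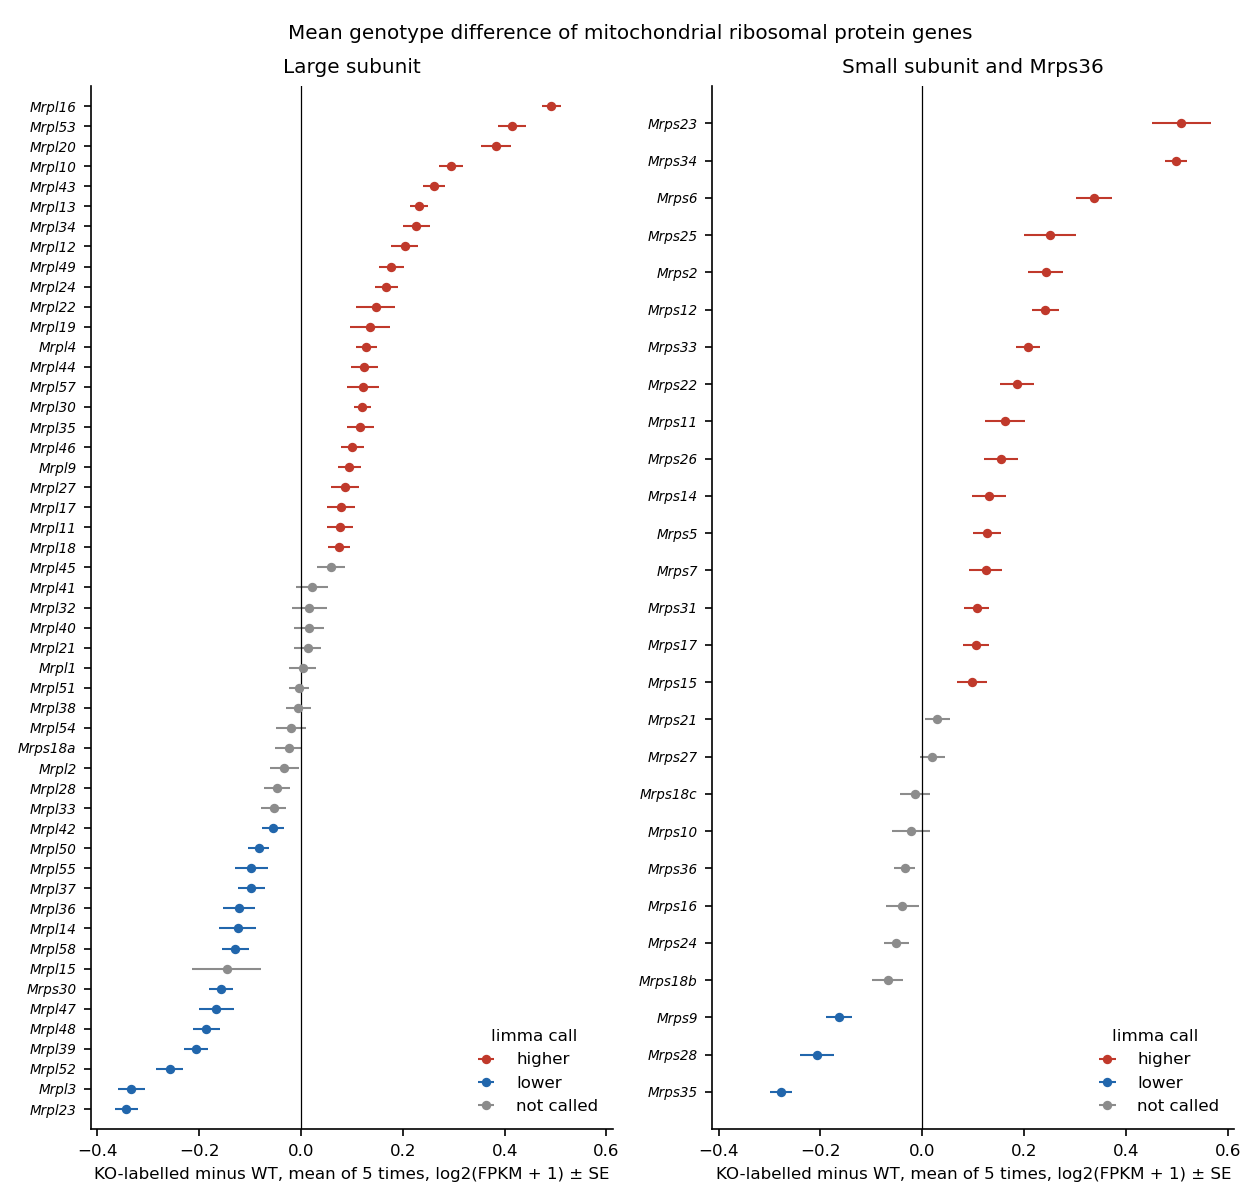
Mean difference between KO-labelled and WT hearts over 5 times for each of the 78 members, in log2(FPKM + 1), with bars of 1 standard error from limma. Red, blue and grey points mark genes called higher, called lower and not called. Mrps23, Mrps34 and Mrpl16 lie furthest to the right, near 0.50, and Mrpl23 and Mrpl3 furthest to the left.

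Of the 26 small-subunit genes 16 were higher, 3 were lower and 7 were not called (median log2 difference 0.12). Of the 51 large-subunit genes 23 were higher, 14 lower and 14 not called (median 0.02). Among large-subunit genes, the 30 shared with bacteria had 17 higher and 6 lower (median 0.08), and the 21 found only in mitochondria had 6 higher and 8 lower (median -0.01). Among small-subunit genes the same classes had 9 higher and 2 lower of 16, and 7 higher and 1 lower of 10. A difference between subunits or classes was not tested. Libraries of the genotypes did not overlap, over the 5 shared times, for 10 members, 7 higher and 3 lower, against 6.75% of all genes tested (3.95% higher, 2.80% lower). The difference had 1 sign at all 5 times for 46 members, 32 higher and 14 lower, against 46.0% of all genes.

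Among small-subunit genes, Mrps34 encodes a mitochondria-specific protein that in mouse and human is needed to keep the small subunit stable. Mrps34 (17: 24895120 to 24896289, GRCm38) stood at 64.0, 72.0 and 79.2 FPKM (lowest, median, highest) in the 15 WT libraries of the shared times and at 96.9, 102 and 108 FPKM in the 15 KO-labelled libraries. Every KO-labelled library lay above every WT library. The log2 difference was 0.50 ± 0.02 (SE; limma adjusted p = 1.58e-17). It ranged from 0.43 at ZT10 and ZT18 to 0.60 at ZT14.

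Mrps23, another mitochondria-specific protein of the small subunit, had the largest mean difference, 0.51 ± 0.06 (limma adjusted p = 1.22e-08), but a wider spread. At 70.6, 90.1 and 129 FPKM in WT and 100, 139 and 163 FPKM in KO-labelled libraries, the genotypes overlapped. Mrps23 ends within 35 bases of overlap with Cuedc1 on the same strand (WT mean 24.5 FPKM, not called). Its course over the day is described with the time effects.

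Mrps6, the partner of S18 in the bacterial small subunit, stood at 31.9, 35.3 and 42.8 FPKM in WT and 39.7, 45.3 and 51.9 FPKM in KO-labelled libraries, so the ranges overlapped slightly. The difference was 0.34 ± 0.04 (limma adjusted p = 3.14e-09). Slc5a3 lies within the span of Mrps6 on the same strand, at a mean of 0.467 FPKM in WT, too low for the test. Mrps2, the uS2 protein, differed by 0.24 ± 0.03, and the low-level Mrps25 by 0.25 ± 0.05, with overlapping ranges in each.

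The small-subunit genes that fell were Mrps35, Mrps28 and Mrps9. Mrps35 (6: 147042728 to 147070906) encodes a mitochondria-specific protein. It stood at 73.3, 79.7 and 85.6 FPKM in WT and 61.1, 65.1 and 72.8 FPKM in KO-labelled libraries, without overlap, and fell by 0.28 ± 0.02 on the log2 scale (limma adjusted p = 8.48e-12). Mrps28, the counterpart of bacterial S1, had 47.0, 52.3 and 61.7 FPKM in WT and 39.4, 45.2 and 50.8 FPKM in KO-labelled libraries. These ranges overlapped, and the mean fell by 0.21 ± 0.03.

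On the large subunit, Mrpl16 encodes uL16m, whose bacterial counterpart lies by the site where transfer RNA enters. Mrpl16 (19: 11770415 to 11774956) stood at 44.9, 49.0 and 54.2 FPKM in WT and 66.3, 70.0 and 72.5 FPKM in KO-labelled libraries. The gap between genotypes was wider than the range within either. The difference was 0.49 ± 0.02 (limma adjusted p = 3.81e-19) and stayed between 0.44 and 0.52 at all 5 times.

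Mrpl53, a mitochondria-specific protein at the base of the stalk that recruits translation factors, had 66.2, 69.6 and 79.4 FPKM in WT and 86.7, 94.3 and 105 FPKM in KO-labelled libraries. The ranges did not overlap, and the difference was 0.41 ± 0.03 (limma adjusted p = 2.44e-13), with values of 0.39 to 0.42 over the times. It is the member whose upstream window holds the Rev-erb and ROR element printed above. Mrpl20, whose bacterial counterpart binds early in assembly, had 65.0, 75.8 and 79.3 against 85.7, 98.3 and 111 FPKM, again apart, and differed by 0.38 ± 0.03. Mrpl10, which carries the stalk, and Mrpl13 were also apart and higher, by 0.29 ± 0.02 and 0.23 ± 0.02 (both named after their values were seen), and so was Mrpl43. Mrpl12, the stalk protein, differed by 0.20 ± 0.03 with overlapping ranges (180 to 227 against 205 to 257 FPKM).

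Lower members of the large subunit included proteins of its core. Mrpl23 encodes uL23m, at the rim of the exit tunnel in bacteria. Mrpl23 (7: 142532467 to 142540747) had 105, 119 and 123 FPKM in WT and 81.7, 92.1 and 102 FPKM in KO-labelled libraries. Every KO-labelled library was below every WT library, and the difference was -0.34 ± 0.02 (limma adjusted p = 2.33e-13).

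Mrpl3 encodes uL3m, which reaches toward the catalytic centre and whose human gene is mutated in a cardiomyopathy. It had 59.5, 66.6 and 69.4 FPKM in WT against 45.7, 52.6 and 58.7 FPKM in KO-labelled libraries. The ranges were apart, and the difference was -0.33 ± 0.03 (limma adjusted p = 1.24e-11), from -0.24 at ZT2 to -0.42 at ZT14 and ZT18. Mrpl52 (89.5 to 107 against 73.9 to 92.0 FPKM, a difference of -0.26 ± 0.03) and Mrpl39 (55.9 to 66.8 against 47.2 to 56.4 FPKM, -0.21 ± 0.02), both mitochondria-specific, overlapped between genotypes.

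**Figure D2:**
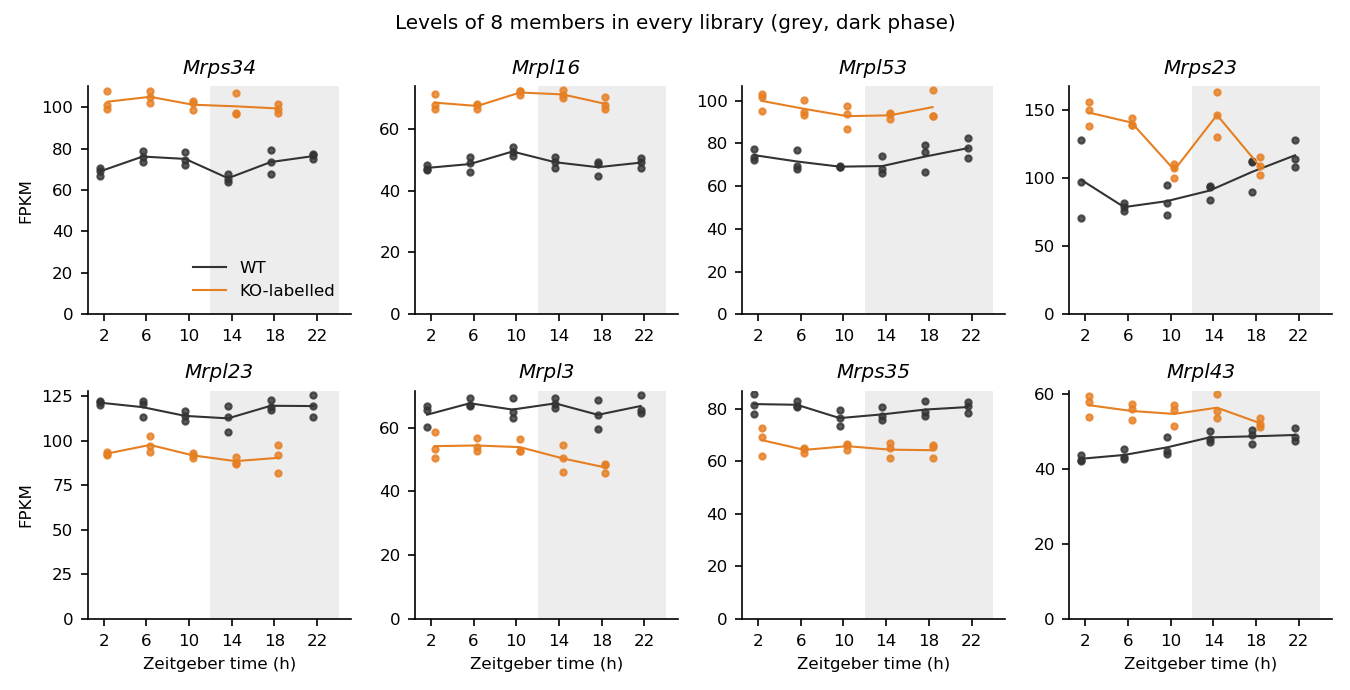
Levels in FPKM of 8 members in every library against zeitgeber time, WT in dark grey and KO-labelled in orange; points are libraries (3 per group), lines join group means and the dark phase is shaded. Mrps34, Mrpl16 and Mrpl53 are higher and Mrpl23, Mrpl3 and Mrps35 lower in KO-labelled hearts at each of the 5 times, while Mrps23 comes together at ZT18.

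Some members have names that hide their place. Mrps30 encodes a protein of the large subunit despite its name and was lower, at 32.8, 37.3 and 39.8 FPKM in WT and 28.9, 33.1 and 34.9 FPKM in KO-labelled libraries (difference -0.16 ± 0.02). Mrpl58, a peptidyl-tRNA hydrolase built into the large subunit that frees stalled chains, was lower too, at 60.5 to 76.3 against 57.7 to 66.8 FPKM (-0.13 ± 0.03). Mrps36 encodes a part of the 2-oxoglutarate dehydrogenase complex and belongs to neither subunit, and it was not called (141 to 176 against 138 to 163 FPKM). Its difference was -0.03 ± 0.02, and it was called lower under all 4 scaling and count alternatives, with -0.06 under median-ratio scaling.

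The paralogs of bacterial S18 were not called either. Mrps18c, in the place of S18 in the small subunit, had 53.9 to 66.1 FPKM in WT and 52.4 to 67.7 FPKM in KO-labelled libraries. Mrps18b, elsewhere in the small subunit, had 39.4 to 56.7 against 40.7 to 48.6 FPKM, with a difference of -0.07 ± 0.03 (limma adjusted p = 0.0596) that was called lower under the 4 scaling and count alternatives and in 7 of 33 fits that left out 1 library. Mrps18a, part of the large subunit, had 88.0 to 111 against 88.2 to 107 FPKM. Mrpl15, of the large subunit, had WT values from 18.4 to 32.7 FPKM and KO-labelled values from 18.3 to 23.2 FPKM. Its difference of -0.15 ± 0.07 was not called (limma adjusted p = 0.0701), but was lower past the threshold with median-ratio scaling (adjusted p = 0.0350), with quantile normalization, with edgeR, and in 3 of the 33 fits that left out 1 library, those without replicate 3 of WT at ZT2, replicate 3 at ZT6 or replicate 2 at ZT18.

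At single times the calls were fewer. At ZT2, 28 members were higher and 6 lower (29.9% of all genes called), and at ZT6, 21 and 12 (31.8%). At ZT10 there were 23 and 9 (27.8%), at ZT14 21 and 10 (30.9%), and at ZT18 12 and 11 (32.1%). The median member difference went from 0.09 at ZT2 to -0.01 at ZT18, while that of all genes was 0.03 and 0.01 at these times.

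**Figure D3:**
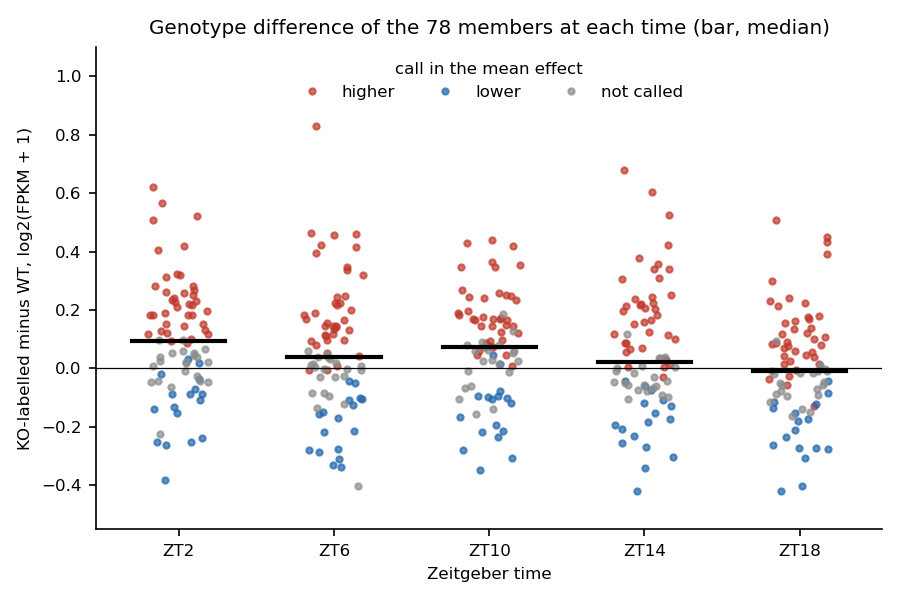
Difference between KO-labelled and WT hearts of the 78 members at each of 5 times, in log2(FPKM + 1); colours give the call in the mean over times and black bars the median. The medians are 0.09, 0.04, 0.07, 0.02 and -0.01 from ZT2 to ZT18, and the highest point at ZT6 is Mrps23 at 0.83.

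A difference between times was called by limma's F test for 3 members, Mrpl43, Mrps23 and Mrpl27 (5.37% of all genes called). An unadjusted p under 0.05 was found for 11 members. The share of all genes under that unadjusted p is not given here, so nothing is read from the 11. Mrpl43, a mitochondria-specific protein of the large subunit, had WT values of 42.5, 43.7 and 42.2 FPKM and KO-labelled values of 53.9, 57.8 and 59.5 FPKM at ZT2. At ZT18 they were 46.7, 50.4 and 49.2 against 51.9, 51.3 and 53.7 FPKM. All KO-labelled libraries were above the WT ones at both times, but the log2 difference was 0.41 ± 0.05 at ZT2 and 0.10 ± 0.05 at ZT18 (interaction adjusted p = 0.0403). Mrpl43 overlaps Twnk, the mitochondrial DNA helicase gene, by 780 bases on the other strand, and the library is not stated to be stranded; Twnk was not called.

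Mrps23 had WT values of 76.0, 81.7 and 78.9 FPKM and KO-labelled values of 144, 140 and 139 FPKM at ZT6. At ZT18 the values were 113, 90.1 and 112 against 115, 102 and 109 FPKM. The groups were wide apart at ZT6 and overlapped at ZT18. The log2 difference was 0.83 ± 0.13 and 0.06 ± 0.13 at these times, and at ZT2, ZT10 and ZT14 it was 0.62, 0.35 and 0.68 (interaction adjusted p = 0.0415). In WT at ZT2 the libraries spread from 70.6 to 129 FPKM.

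Mrpl27, whose bacterial counterpart reaches the catalytic centre, had WT values of 38.8, 41.2 and 43.6 FPKM and KO-labelled values of 50.5, 52.0 and 45.8 FPKM at ZT10. At ZT18 the order turned, with 44.5, 46.5 and 47.1 FPKM in WT and 38.7, 44.6 and 43.0 FPKM in KO-labelled libraries, where the groups overlapped by 1 library. The log2 difference was 0.26 ± 0.06 at ZT10 and -0.13 ± 0.06 at ZT18, of which the first was called (interaction adjusted p = 0.0492). These calls were close to the threshold: leaving out 1 library gave 0 to 4 calls, and median-ratio scaling 1.

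A 24 h cosine was fitted in each genotype, over 6 times in WT and 5 in KO-labelled hearts. In WT 28 members were called rhythmic (38.6% of all genes), 17 of the large and 10 of the small subunit and Mrps36, and in KO-labelled hearts 16 were (26.9% of all genes). Of the 28, 20 peaked between ZT18 and ZT24, late in the dark, against 24.7% of all genes called rhythmic in WT. In KO-labelled hearts 7 of 16 did, against 21.6%. That window was chosen after the values were seen, and in KO-labelled hearts it holds no sampled time after ZT18. With median-ratio scaling the counts were 30 of 37 (36.4% of all rhythmic genes) and 14 of 16 (36.9%), so peak times depend on scaling. With quantile normalization they were 25 of 33 (32.5%) and 5 of 13 (30.0%), and once length and GC trends were taken out 26 of 36 (34.4%) and 10 of 18 (36.8%).

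Amplitudes, from mean to peak, were small: 0.08, 0.11 and 0.26 (lowest, median, highest, log2) among the members called in WT and 0.06, 0.11 and 0.20 in KO-labelled hearts, against medians of 0.15 and 0.18 for all rhythmic genes. The largest in WT were those of Mrpl15 (0.26, peak at ZT0.83), Mrps23 (0.26, ZT20.6), Mrps2 (0.25, ZT21.5), Mrpl34 (0.23, ZT21.5) and Mrpl19 (0.20, ZT0.34). In KO-labelled hearts they were those of Mrpl47 (0.20, ZT22.7), Mrps10 (0.19, ZT10.7), Mrpl19 (0.18, ZT23.2), Mrpl34 (0.17, ZT21.9) and Mrpl27 (0.13, ZT8.65). The WT amplitude of Mrpl15 comes with a wide spread among libraries of the same time. Its WT values were 32.7, 30.5 and 18.85 FPKM at ZT2 and 29.6, 19.2 and 20.4 FPKM at ZT18. Mrpl34, a short protein deep in the large subunit of bacteria, was 1 of 5 members called in both genotypes, with Mrpl12, Mrpl19, Mrpl45 and Mrpl47. The peaks of all 5 lay within 3 h of each other between genotypes. Shares of all genes called in both genotypes, and of those with peaks that close, are not given here, so nothing is read from these counts.

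**Figure D4:**
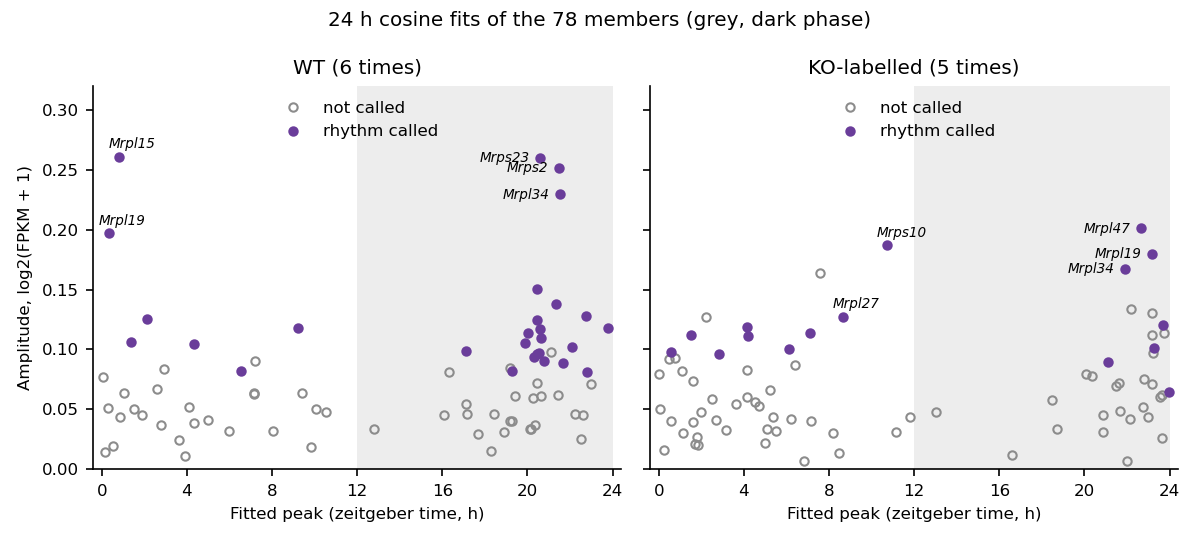
Amplitude in log2(FPKM + 1) against fitted peak time of the 24 h cosine for the 78 members in WT (left) and KO-labelled hearts (right); filled points were called rhythmic and the dark phase is shaded. In WT, 20 of 28 filled points lie between ZT18 and ZT24.

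That 23 members were called in WT alone and 11 in KO-labelled hearts alone does not show that their rhythms differ. The limma test of the difference called 1 member, Mrpl27 (adjusted p = 0.0380), against 1.09% of all genes called. The next smallest were Mrpl43 (adjusted p = 0.0781) and Mrpl17 (0.293). In all, 11 members had an unadjusted p under 0.05 in that test, for which the share of all genes is not given here. In the light minus dark contrast of WT 4 members were called higher in the light and 16 lower (31.7% of all genes called, 18.9% higher and 12.8% lower). In KO-labelled hearts 9 were higher in the light and 1 lower (20.1% called, 11.9% higher and 8.16% lower). Dark times were ZT14, ZT18 and ZT22 in WT but ZT14 and ZT18 in KO-labelled hearts, so these splits are not like for like. The difference between genotypes of the light minus dark contrast over the shared times called 0 members by limma and 0 by edgeR (1.00% of all genes called by limma, 0.399% higher and 0.602% lower). At an unadjusted p under 0.05 there were 10 members, a count for which the share of all genes is not given here. The median difference of the contrast was 0.05 against -0.003 for all genes.

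Other genes of the pathway were counted from lists. Of 5 ribosomal proteins of the organelle under other names, Ptcd3 (difference 0.08 ± 0.02) and Aurkaip1 (0.07 ± 0.02) were higher, and Dap3, Chchd1 and Gadd45gip1 were not called. Under each of the 4 scaling and count alternatives 1 of the 5 was higher, and 1 or 2 were lower. Of 16 tested translation factors 9 were higher and 3 lower, or 7 and 5 once length and GC trends were taken out. Taco1, an activator of the translation of a cytochrome oxidase subunit, had 35.8 to 42.8 FPKM in WT and 45.5 to 53.8 FPKM in KO-labelled libraries (difference 0.31 ± 0.02). WT ranges of list genes include ZT22. Tsfm, the elongation factor Ts (0.29 ± 0.03), and Mtif3, an initiation factor (0.21 ± 0.03), were higher too. Lrpprc, which stabilises mitochondrial messenger RNAs, was lower, at 68.4 to 78.2 against 57.1 to 67.0 FPKM (-0.26 ± 0.02). Mtrf1l, a release factor (-0.18 ± 0.05), and Oxa1l, which inserts new proteins into the inner membrane (-0.07 ± 0.02), were also lower.

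Of 26 genes for ribosome assembly and ribosomal RNA modification 6 were higher and 6 lower, or 5 and 11 once length and GC trends were taken out. Trub2 (0.29 ± 0.07), a pseudouridine synthase, the methyltransferase Mrm2 (0.22 ± 0.04) and Rpusd3 (0.19 ± 0.04) led the first, and Mettl17 (-0.31 ± 0.06), Mrm1 (-0.19 ± 0.04) and the GTPase Noa1 (-0.17 ± 0.03) the second. Of 20 mitochondrial aminoacyl-tRNA synthetases and related enzymes, which charge transfer RNAs, 6 were higher and 4 lower. That balance turned with scaling, to 5 and 6 after median-ratio scaling, 5 and 5 under quantile normalization, 4 and 6 with edgeR and 5 and 8 without length and GC trends. Mars2 (0.19 ± 0.04) and Lars2 (0.15 ± 0.03) were among those higher, and Ears2, the glutamyl enzyme, was lower by the widest margin, from a mean of 5.56 FPKM in the 15 WT libraries to 3.56 FPKM in the 15 KO-labelled ones (-0.53 ± 0.04). Of 17 genes of mitochondrial DNA and RNA handling 3 were higher, Supv3l1 (0.27 ± 0.02), Ssbp1 (0.14 ± 0.02) and Pnpt1 (0.10 ± 0.02), and 5 lower, led by Hsd17b10 (-0.20 ± 0.02), Polg (-0.14 ± 0.02) and Polg2 (-0.12 ± 0.05). Without length and GC trends the last list had 3 higher and 7 lower.

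Of 9 regulators of nuclear genes for mitochondria 1 was higher and 2 were lower, or 1 and 4 with edgeR. Ppargc1a, the coactivator PGC-1alpha, had a mean of 24.9 FPKM in WT and 17.0 FPKM in KO-labelled libraries of the 5 times (difference -0.50 ± 0.05, limma adjusted p = 5.22e-10). Gabpa, the ETS factor named above, was lower by less (-0.21 ± 0.03), and Pprc1, a relative of PGC-1alpha, was higher (0.15 ± 0.04). For comparison, 26 of 84 oxidative phosphorylation subunit genes were higher and 25 lower. With median-ratio scaling these were 18 and 33, with quantile normalization 13 and 42, and without length and GC trends 12 and 50. Of the 78 cytosolic ribosomal protein genes 34 were higher and 6 lower, a split that became 24 and 14 after median-ratio scaling, 24 and 19 under quantile normalization and 19 and 32 once length and GC trends were taken out.

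**Figure D5:**
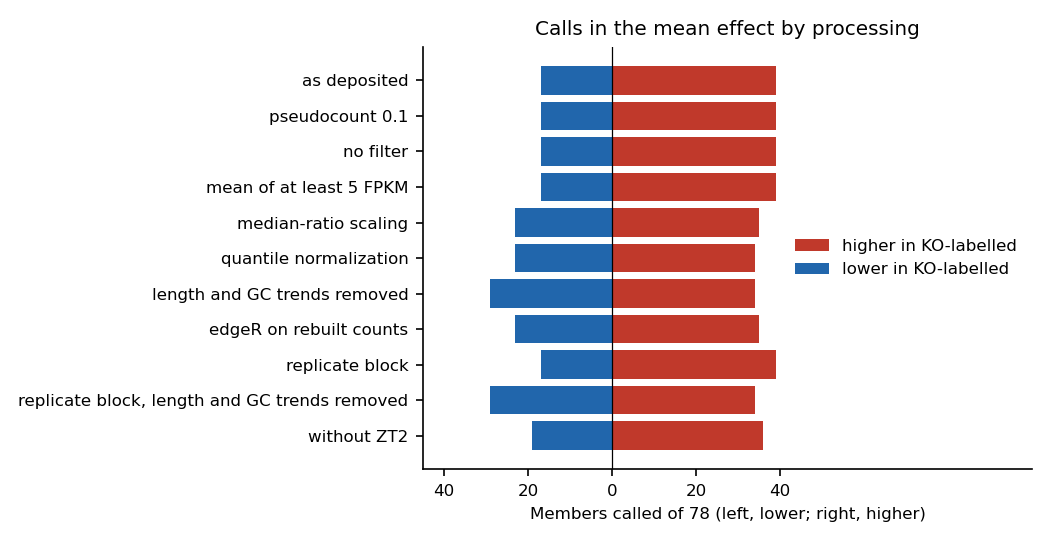
Number of the 78 members called higher (red, right) or lower (blue, left) in KO-labelled hearts in the mean over times, under each way of processing. The values as deposited gave 39 and 17, and the largest number of lower calls, 29, came once length and GC trends were taken out.

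Many members share their start region with another gene. Of the 69 members with a listed start, 26 (37.7%) had a start on the other strand within 1000 bases pointing away, against 19.4% of the 9412 genes tested with a listed start. They form 21 distinct pairs in which both genes were tested. In 7 pairs (33.3%) both genes were called, 6 of them in the same direction, against 36.4% of the 547 such pairs among all genes tested, of whose called pairs 69.8% had the same direction. Mrpl46, of the large subunit, and Mrps11, of the small subunit, count as each other's partner, with starts 42 bases apart across the stretch printed above. Mrpl46 had 34.2, 37.1 and 42.3 FPKM in WT and 34.9, 39.8 and 45.7 FPKM in KO-labelled libraries (0.10 ± 0.02), and Mrps11 had 16.7, 19.8 and 21.2 against 19.2, 21.9 and 23.97 FPKM (0.16 ± 0.04). Both were higher with overlapping ranges. The pair with opposite calls was Mrpl18 (0.07 ± 0.02) and Tcp1, a chaperonin subunit gene (-0.06 ± 0.02), whose spans overlap. In all, 20 members overlap another protein-coding gene. Reads of the shared bases could not be told apart from those of the neighbour where strand was not kept. For neighbours on the same strand, as Slc5a3 for Mrps6 and Cuedc1 for Mrps23, strand would not separate them either.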

How the data were processed

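The 33 Illumina TruSeq libraries used total RNA of hearts, per the labels' protocols. The submitters' processing notes name the build mm10. The aligner and counter were not given in the sources used here. The authors deposited a value per NCBI gene ID that was taken to be FPKM from the values themselves. The 3 tables recorded for KO at ZT22 hold expected counts that the authors deposited, of the KO ZT10 libraries per the file headers, and served for gene lengths, depth and rebuilt counts. Headers of 3 WT ZT14 columns carry other replicate numbers, and the record was followed. A further 1 column of per-sample values was not used.

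Symbols and coordinates came from RefSeq (GRCm38.p6; 18623 IDs named). Genes that reached 1 FPKM in 3 or more libraries entered limma 3.58.1 (R 4.3.3) on log2(FPKM + 1), which understates changes of low genes, with 11 group means (22 residual degrees of freedom) or genotype means and a 24 h cosine each (27), and Benjamini-Hochberg adjustment over all 11790 genes. The method was tested on simulated data. The alternatives included edgeR 4.0.16 on rebuilt, rounded counts. Members were named by size of effect, amplitude, level or smallest adjusted p, plus a few with misleading names, and list genes as up to 3 of the largest called each way, of which 1 is not reported here. Members, lists, motifs and tests were chosen with earlier results of these data known. Libraries were grouped by labelled genotype and time. Each library's depth was recovered from steps of low values. Counting error rests on length as well as level and depth, and is larger for short genes at the same FPKM. Members had a median recovered length of 964 bases and a lowest of 336, against a median of 2750 for all genes tested.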

Additional observations from a re-analysis of the deposited data

Results flagged for a closer look

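Results that differed between times or genotypes by a test of the difference itself were those of 3 members. Of all genes tested 5.37% were called in the interaction and 1.09% in the rhythm difference, so the counts are not read as particular to the members. For the genotype by time interaction the limma adjusted p was 0.0403 for Mrpl43, whose difference between KO-labelled and WT hearts was positive at all 5 times and went from 0.41 at ZT2 to 0.10 at ZT18 on the log2 scale. It was 0.0415 for Mrps23, with 0.83 at ZT6 and 0.06 at ZT18, and 0.0492 for Mrpl27, with 0.26 at ZT10 and -0.13 at ZT18. For the difference of the 24 h rhythm between genotypes it was 0.038 for Mrpl27, with a fitted peak at ZT19.4 in WT (amplitude 0.06, rhythm not called) and at ZT8.65 in KO-labelled hearts (amplitude 0.13, rhythm called).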

How the results depend on the processing

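Counts of members called in the mean difference, at single times, in the WT light minus dark contrast and in the WT rhythm stayed within 1.5 times in every alternative run, except that lower calls rose from 17 to 29 with trends on length and GC content removed, with or without a replicate block. Interaction calls (3) became 0 without a filter, 1 with median-ratio scaling and 1 with the replicate block. Light minus dark calls in KO-labelled hearts (10) became 5 with median-ratio scaling, 6 with length and GC trends removed, 6 with edgeR and 5 with the replicate block and those trends removed. Rhythm difference calls (1) became 0 without a filter, with median-ratio scaling and with edgeR, and 2 with quantile normalization. The added contrast of light minus dark between genotypes, chosen after the data were seen, called 1 member in place of 0 with a mean of at least 5 FPKM, quantile normalization, or length and GC trends removed, with or without the replicate block. The cause was not tested. Leaving out 1 library in turn gave 39 to 40 higher and 16 to 20 lower calls, 0 to 4 interaction calls (20 of 33 fits beyond 1.5 times), 4 to 10 light minus dark and 9 to 18 rhythm calls in KO-labelled hearts, 0 to 2 rhythm differences and 0 to 1 of the added contrast. Mrps21 turned from 0.03 to -0.0506 with quantile normalization (not called) and to -0.0603 with length and GC trends removed (called lower, also with the replicate block). Mrpl51 (-0.0125 to 0.00526) and Mrps18c (-0.0279 to 0.00131), which were not called, changed sign in 5 fits and 1 fit that left out a library. Calls changed in such fits for Mrps18b (called lower in 7, without KO-labelled ZT2 replicate 3, ZT10 replicate 2 or ZT14 replicate 1, or WT ZT2 replicate 3, ZT14 replicate 2 or ZT18 replicate 1 or 2), Mrpl15 (called lower in 3) and Mrpl42 (not called in 4, without KO-labelled ZT2 or ZT10 replicate 1, or WT ZT6 or ZT10 replicate 3). Replicate numbers did not pair libraries: deviations of same-numbered libraries correlated at -0.15 to 0.16, with a median of 0.006, and the block left 39 higher and 17 lower calls in the mean. Libraries were 3 a group, the KO-labelled rhythm rests on 5 times, and members of low level or short length carry more counting error than others.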
